A study of Homo sapiens with 24 samples.

Results

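The HNF4 and ONECUT genes were examined in maps of N6-methyladenosine (m6A), a methyl mark on adenosines of mRNA. The 5 genes were HNF4A, HNF4G, ONECUT1, ONECUT2 and ONECUT3, and every m6A peak assigned by the authors to the GENCODE identifier of one of them was taken, which gave 115 of 228472 peaks. m6A-seq precipitates RNA fragments with an antibody against m6A (IP) and sequences them beside fragments taken before precipitation (input), and methylation shows as a peak where IP exceeds input. All cells came from MEL1, a human embryonic stem cell line, named in the methods of the study as MEL1 INS-GFP/W, a reporter with GFP at the insulin locus. In the first batch, the 4 stages of a pancreatic differentiation were profiled from mRNA with a SYSY antibody: undifferentiated human pluripotent stem cells (hPSC), the definitive endoderm made from them (DE), progenitors of the pancreas (PP) and islet-like organoids (hILO). In the second batch, wild-type PP (WT PP) and PP from a clone with a CRISPR-Cpf1 knockout of ALKBH5 (A5-KO PP), the enzyme that removes m6A, were profiled from total RNA with a Millipore antibody and another library kit, and rRNA was removed from the input. Batch and experiment cannot be told apart, so comparisons were made among the 4 stages and, separately, of A5-KO PP against WT PP.

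Each population had 2 IP and 2 input libraries, and its peaks were called on them together, so that 1 list with 1 value per peak was available for each of the 6 populations. No spread between replicates could be computed, no test was made, and the counts below are descriptions of single lists. The lists held 29083 to 55219 peaks, with 6987612 to 28463998 input reads and 30723097 to 79822815 IP reads inside peaks. Peaks on marker genes followed the labels in part. POU5F1 and NANOG, the pluripotency factors, had peaks only in hPSC and DE, PDX1 and NKX6-1, which mark pancreatic progenitors, only in PP, hILO, WT PP and A5-KO PP, and the hormone genes INS, GCG and SST only in hILO. Markers of other endoderm were also present: SOX17 of early endoderm had peaks in DE, WT PP and A5-KO PP, CER1 in these and, with 2 peaks, in hPSC, GATA6 from DE onward, the intestinal CDX2 and VIL1 in PP, hILO, WT PP and A5-KO PP, and the hepatic AFP and TTR in hILO, WT PP and A5-KO PP. ALB had 1 peak in hILO alone, APOA1 had peaks in DE, hILO and WT PP, and SOX9 and CHGA already in hPSC. A gene without a peak in a list is not thereby shown to be unmethylated or silent, and fewer cells of a type cannot be told apart from less RNA per cell. ALKBH5, the targeted gene, had 4 peaks in WT PP and 5 for A5-KO PP; the lists hold peaks and not transcript levels, so these check neither label.

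HNF4A and HNF4G are nuclear receptors that bind DNA as dimers and drive gene programmes of liver, gut and pancreas. ONECUT1 (HNF6), ONECUT2 and ONECUT3 are transcription factors with a cut domain and a homeodomain, and ONECUT1 acts upstream of the endocrine lineage in the developing pancreas. m6A is deposited on nascent mRNA by the METTL3 and METTL14 complex at the motif DRACH (any base but C, a purine, A, C, any base but G), is most frequent in long exons and around stop codons, and is removed by ALKBH5 and FTO.

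The sites below show the motif in the stretch of each 3′UTR (untranslated region after the stop codon) that recurred most often. Each is the 29 nt around the GGAC motif that lay whole inside peaks of the most lists, 5′ to 3′ on the transcript strand, with DRACH sites in capitals, read from GRCh38. The HNF4A site (chr20:44429883-44429911, plus strand) lay in peaks of 5 lists, all but hPSC, and the ONECUT1 site (chr15:52757472-52757500, minus strand) in 5 lists, all but DE. The ONECUT2 site (chr18:57476752-57476780, plus strand) lay in 4 lists and the ONECUT3 site (chr19:1776953-1776981, plus strand) in 3, PP being the list that lacked it beside hPSC and DE.
HNF4A 3′UTR: ctctactgccttGGACAacttttctcatg
ONECUT1 3′UTR: tttaaaAGACCaGGACCtcaagatagcag
ONECUT2 3′UTR: acctccaaatgaGGACAacagataccaaa
ONECUT3 3′UTR: ttccctggcctgGGACCcggctcggggcc

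Coding peaks were shown by the 60 nt with most DRACH sites. The peak was the one of highest deposited enrichment among coding peaks with at least 10 input reads; these row values were not tied to the positions, for ONECUT2 in WT PP and A5-KO PP in the rows as deposited, so the choice among coding peaks carries no rank of methylation. The ONECUT1 stretch (chr15:52757626-52757685, minus strand) lay whole inside a peak in 5 lists. The HNF4A stretch (chr20:44428346-44428405, plus strand) was whole in hILO and A5-KO PP, and those of ONECUT2 (chr18:57476455-57476514, plus strand) and ONECUT3 (chr19:1753854-1753913, plus strand) in WT PP and A5-KO PP.
HNF4A coding: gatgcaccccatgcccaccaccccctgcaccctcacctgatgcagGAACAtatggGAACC
ONECUT1 coding: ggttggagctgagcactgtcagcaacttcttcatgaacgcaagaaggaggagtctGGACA
ONECUT2 coding: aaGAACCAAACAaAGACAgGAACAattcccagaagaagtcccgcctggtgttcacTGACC
ONECUT3 coding: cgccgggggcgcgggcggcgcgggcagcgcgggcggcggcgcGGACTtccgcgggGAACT
The ONECUT2 stretch held 5 DRACH sites and the others 1 or 2.

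The first question was at which stage each transcript carried peaks. Peaks on the family were few before the pancreatic stage and present on every member from it onward. In hPSC, 1 of 5 genes had a peak, ONECUT1, where 60.2% of coding genes had one. In DE, 1 of 5 had a peak, HNF4A, against 57% of coding genes. In PP, 5 of 5 genes had peaks against 52.2% of coding genes, and in hILO 5 of 5 against 57.7%. In the second batch WT PP had peaks on 5 of 5 genes, against 62.8% of coding genes, and A5-KO PP likewise on 5 of 5, against 69.7%. Summed over the genes, hPSC had 5 peaks, DE 3, PP 22 and hILO 25, while WT PP had 28 and A5-KO PP 32. With a p below 1e-05 required, PP kept 13 and hILO 24, and A5-KO PP kept 18 against 20 for WT PP, so the order of the last pair turned. Except for ONECUT2 in PP and hILO, the p as deposited could not be tied to the position. The filter therefore does not tell which peaks are weak.

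HNF4A was without a peak in hPSC and had 3 in DE and 5 in each of PP and hILO. It was the member with peaks at the endoderm stage. With a p below 1e-05 required, 0 of the 3 DE rows remained, but the p in these rows could not be tied to the positions. This filter therefore does not tell whether the 3 peaks are weak. ONECUT1 had 5 peaks in hPSC and none in DE, and then 6 in PP and 4 in hILO. HNF4G, ONECUT2 and ONECUT3 shared 1 pattern, with peaks in PP and hILO and none in hPSC and DE, which 351 of 20046 coding genes (1.75%) had. HNF4G carried 1 peak in each of PP and hILO, ONECUT2 8 and 12, and ONECUT3 2 and 3.

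In the second batch HNF4A had 5 peaks in WT PP against 7 with the knockout, and ONECUT1 had 5 against 8. HNF4G had 1 in each, ONECUT3 5 in each, and ONECUT2 had 12 against 11. Genes with a peak had a median of 2 peaks in each list of the first batch and 3 in each of the second. At least 5 peaks were found on 3 of the 5 genes in PP and 2 in hILO, and on 4 in each of WT PP and A5-KO PP, where 16.3%, 15.3%, 24.7% and 25.1% of coding genes with a peak had that many.

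The share of exonic bases inside peaks separated the members further. HNF4A had 8.61% of its exons within peaks at DE, 13.0% at PP and 24.7% at hILO, against medians over coding genes with a peak of 8.67%, 7.56% and 9.47%. ONECUT1 stood at 15.5% in hPSC, where the median was 9.67%, and at 34.4% in PP and 26.6% in hILO. ONECUT2 stood at 15.6% in PP and 19.0% in hILO. ONECUT3 went from 1.39% in PP, which is 100 nt in all, to 18.1% in hILO, and HNF4G had 1.56% and 3.13%, below the median at both stages.

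**Figure D1:**
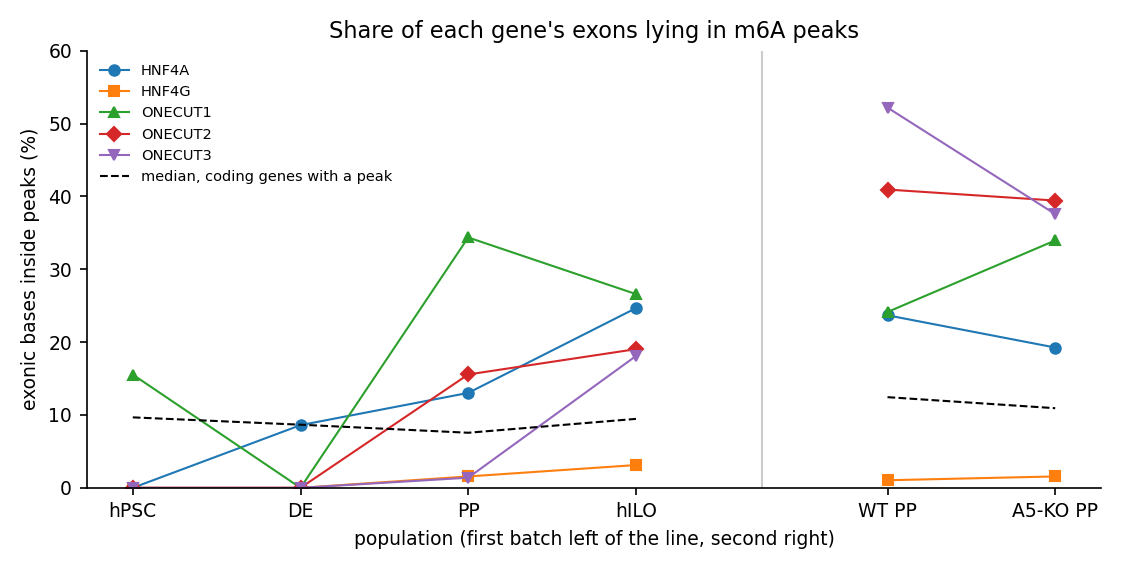
Share of each gene's exonic bases inside m6A peaks (y axis, %) by population (x axis), with the 4 stages of the first batch left of the line and the second batch right of it; the dashed line is the median over coding genes with a peak. HNF4G lay below the median wherever it had a peak, while HNF4A, ONECUT1 and ONECUT2 lay above it in PP, hILO, WT PP and A5-KO PP.

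In WT PP and A5-KO PP the shares were 23.7% and 19.3% for HNF4A, 24.1% and 34.0% for ONECUT1, 40.9% and 39.4% for ONECUT2, and 52.2% and 37.6% for ONECUT3, against medians of 12.4% and 10.9%. HNF4G again had least, with 1.04% and 1.56%. Thus the share was lower in A5-KO PP for HNF4A, ONECUT2 and ONECUT3 and higher for ONECUT1 and HNF4G, and no replicate spread was available to weigh these differences against.

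Most peaks of the family lay after the stop codon. By their midpoint on the longest coding isoform, 79 of the 115 peaks were in the 3′UTR, 26 in the coding sequence, 4 in the 5′UTR and 6 on exons outside that isoform. Of the placed peaks, 72.5% were in the 3′UTR, where the peaks of all genes had 39.1%, with 54.1% in the coding sequence and 6.79% in the 5′UTR. The 3′UTRs of these isoforms are 2502 to 14575 nt long, and the part of this length in the result was not tested.

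HNF4A (ENSG00000101076, chr20:44355699-44432845, plus strand) has a 3′UTR of 3180 nt in its longest coding isoform of 10 exons, and 21 of its 25 peaks lay there. Merged over the lists, its peaks formed 5 stretches. Those at chr20:44429730-44430929 and chr20:44430980-44431904, both in the 3′UTR, were present in DE, PP, hILO, WT PP and A5-KO PP. Of the 3′UTR, peaks covered 27.5% at DE, 40.1% at PP and 65.3% at hILO, and 62.9% in WT PP against 48.0% for A5-KO PP. A stretch of 433 exonic nt over 3 exons at chr20:44424550-44428419, of which only the part on the longest coding isoform is known here to be coding, and a distal 3′UTR stretch at chr20:44432380-44432654 were found in hILO, WT PP and A5-KO PP and not in DE or PP; in the distal one the hILO peak abutted those of WT PP and A5-KO PP without sharing a base. A coding peak of 50 nt at chr20:44429555-44429604 was in PP alone.

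HNF4G (ENSG00000164749, chromosome 8, plus strand) had a single peak in each of its 4 lists, all 4 with their midpoint in the coding sequence and within 1 stretch of 225 exonic nt at its end. The hILO peak ran past the stop codon into the 3′UTR. It was 75 nt long in PP and 150 nt in hILO, and 50 nt in WT PP against 75 nt for A5-KO PP. The 3′UTR of 2738 nt held no peak midpoint in any list, while that of HNF4A, its paralogue, held 21.

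ONECUT1 (ENSG00000169856, chr15:52755053-52791078, minus strand), with 2 exons in its longest coding isoform, had 4 peaks in the 5′UTR, 7 in the coding sequence, 11 in the 3′UTR and 6 on other exons. A stretch of 1025 exonic nt around the stop codon (chr15:52756903-52780675, the intron before the last exon included) was found in hPSC, PP, hILO, WT PP and A5-KO PP. A 5′UTR stretch at chr15:52789827-52790251 was present in hPSC, PP, hILO and A5-KO PP and not in WT PP. Peaks covered 38.7% of the 5′UTR in hPSC, 75.7% in PP, 70.1% in hILO and 81.2% in A5-KO PP against 0% in WT PP. The coding stretch at chr15:52789127-52789601 was likewise in PP and A5-KO PP and not in WT PP. The 3′UTR went the other way, with 40.0% in peaks in WT PP against 31.1% for A5-KO PP, and its stretches at chr15:52756128-52756227 and chr15:52755228-52755302 were in WT PP alone, while the stretch at chr15:52755478-52755827 was in A5-KO PP and hILO, abutting there without a shared base. The 3 other coding or upstream-exon stretches were chr15:52788337-52788951, in hPSC, PP, hILO and A5-KO PP, chr15:52787937-52788311, in PP and A5-KO PP, and chr15:52785892-52787028, in hPSC and WT PP.

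**Figure D2:**
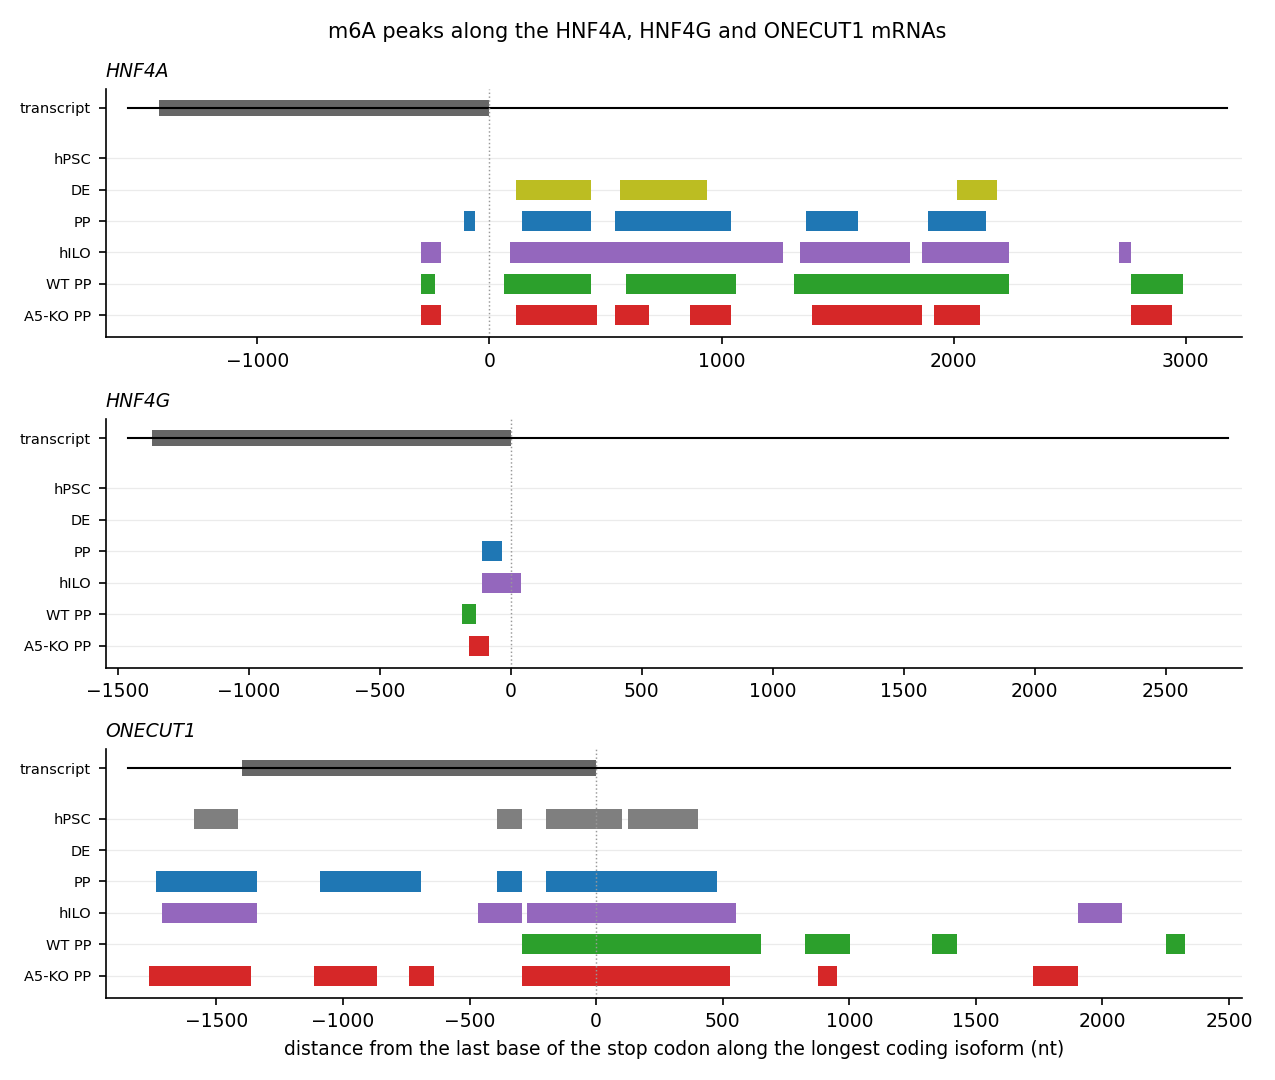
Peaks along the longest coding isoforms of HNF4A, HNF4G and ONECUT1, by distance from the last base of the stop codon (x axis, nt), 1 row per population; the thick grey bar is the coding sequence and the thin line the UTRs, and the 6 ONECUT1 peaks on exons outside this isoform are not drawn. HNF4A peaks lay mostly in the 3′UTR, the HNF4G peaks just before or at the stop codon, and the 5′UTR and upstream coding peaks of ONECUT1 were in the A5-KO PP row and not in the WT PP row.

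ONECUT2 (ENSG00000119547, chr18:57435374-57491298, plus strand) has 2 exons and a 3′UTR of 14575 nt in its longest coding isoform, and 34 of its 43 peaks lay in that 3′UTR. Its peaks formed 13 stretches. In PP, hILO, WT PP and A5-KO PP alike, 5 stretches were present: 1 around the exon junction of that isoform (chr18:57436774-57476552, 400 exonic nt, of which only the part on the isoform is known here to be coding), 1 from the stop codon on (chr18:57476628-57479252, 2625 nt), 2 near 6.5 and 7.5 kb after it (chr18:57483003-57483502 and chr18:57483753-57484877), and 1 at the 3′ end (chr18:57490853-57491202). Between these, 4 stretches of 3′UTR (chr18:57481653-57481902, chr18:57482303-57482577, chr18:57485903-57486377 and chr18:57487003-57487202) were in both WT PP and A5-KO PP and in neither PP nor hILO. A coding stretch (chr18:57436149-57436573) was in PP, hILO and WT PP and not in A5-KO PP. The stretch from the 5′ end (chr18:57435374-57436073) was also in WT PP and A5-KO PP alone, and 2 short stretches (chr18:57490078-57490152 and chr18:57490178-57490227) were in hILO alone.

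ONECUT3 (ENSG00000205922, chr19:1753506-1780988, plus strand), also with 2 exons in its longest coding isoform, had 13 of 15 peaks in its 3′UTR of 5543 nt. The stretch at chr19:1775404-1777678 was in PP, hILO, WT PP and A5-KO PP. In PP it was represented by 2 peaks of 50 nt, in hILO by 1 of 825 nt and in WT PP by a peak of 1975 nt and one of 50 nt. A stretch at the 5′ end, mostly coding (chr19:1753506-1754755), was in WT PP and A5-KO PP. Counting also a peak that begins just before the stop codon in WT PP, 74.7% of the coding sequence lay in peaks for WT PP and 69.0% for A5-KO PP, while PP and hILO had 0%. A difference of this kind between PP and WT PP lies across the batches, where antibody, RNA fraction and library kit differ.

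**Figure D3:**
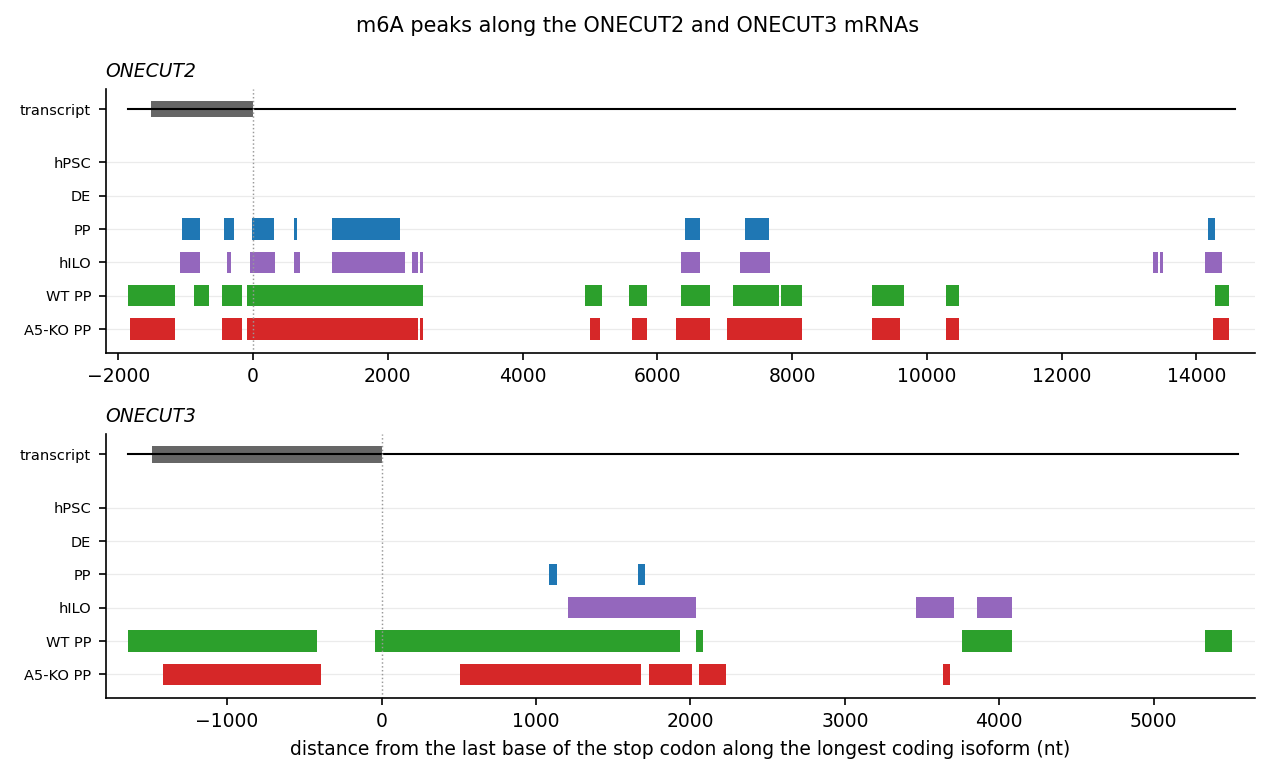
Peaks along the longest coding isoforms of ONECUT2 and ONECUT3, by distance from the last base of the stop codon (x axis, nt), 1 row per population, drawn as in the map of HNF4A, HNF4G and ONECUT1. In ONECUT2 all 4 lists had peaks from the stop codon to 2.2 or 2.5 kb after it, near 6.5 and 7.5 kb and at the 3′ end, and in ONECUT3 the 2 PP peaks were of 50 nt each.

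Of the 34 stretches of the 5 genes, 6 were in 1 list, 13 in 2, 3 in 3, 9 in 4 and 3 in 5 lists. None could be in all 6, since each gene lacked peaks in hPSC, in DE or in both. Only HNF4A and ONECUT1 had peaks in 5 lists. The same tally was not made for other genes. A stretch need not hold a base common to all its lists. The 3 in 5 lists were the 2 long HNF4A stretches and the ONECUT1 stretch around the stop codon.

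It was then asked how many peaks a stage shared with the stage before, where sharing needs over 50% of the exonic bases of a peak to lie in peaks of the other list. None of the 3 DE peaks was shared with hPSC, which follows from HNF4A having no peak there; over all genes 64.7% of DE peaks were shared. Of the 22 PP peaks, 2 were shared with DE, where only the 5 of HNF4A had a DE peak on their gene to meet; over all genes 57% of PP peaks were shared. With any overlap counted, 3 PP peaks met a DE peak. Between PP and hILO, 11 of the 25 hILO peaks were shared, against 45.6% of all hILO peaks. They were 6 of 12 in ONECUT2, 3 of 4 in ONECUT1, 2 of 5 in HNF4A and 0 in HNF4G and ONECUT3.

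For loss of ALKBH5, 19 of the 28 WT PP peaks were shared with A5-KO PP, against 50% of all WT PP peaks. HNF4A had 5 of 5 shared and ONECUT2 11 of 12, while ONECUT1 had 1 of 5, ONECUT3 2 of 5 and HNF4G 0 of 1. In the other direction 23 of the 32 A5-KO PP peaks were shared with WT PP, against 46.8% of all A5-KO PP peaks. These were 7 of 7 in HNF4A, 11 of 11 in ONECUT2, 2 of 8 in ONECUT1, 3 of 5 in ONECUT3 and 0 of 1 in HNF4G. The 6 ONECUT1 peaks of A5-KO PP that were not shared included its 5′UTR peak and both upstream coding peaks. The A5-KO PP list was also longer than that of WT PP over all genes, 55219 against 43312 peaks. It rested on fewer input reads, with a median of 33 per peak against 80 in WT PP. Peaks without an input read were 24.6% in A5-KO PP against 11.5% in WT PP. Whether a peak entered a list rested on thresholds on read values, which were not all in register with the positions.

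The motif was counted on the transcript strand. A DRACH site was found in 110 of the 115 peaks and a GGAC in 84. These counts were not made over all peaks, and DRACH is frequent outside peaks too, so they are not read as enrichment. Over the merged peaks of the 5 genes there were 350 DRACH sites in 18283 nt, 19.1 per kb, against 18.0 per kb elsewhere on the exons of these genes and 15.2 per kb on the opposite strand of the peaks. GGAC, the core of the form most often methylated, which overlaps DRACH where its next base is A, C or T, stood at 4.27 per kb inside and 2.53 outside, a ratio of 1.69 against 1.06 for DRACH. Within single lists the DRACH ratio of the 5 genes was 1.32 in hPSC, 1.5 for DE, 1.27 for PP and 1.33 for hILO, and 1.05 in WT PP against 1.12 for A5-KO PP. By gene, over the merged peaks, it was 1.69 in HNF4G, on 225 nt, 1.22 in HNF4A, 1.21 in ONECUT2, 1.09 in ONECUT1 and 0.85 in ONECUT3. Over all genes with a peak, the ratio within single lists was lowest in A5-KO PP, at 1.17, and highest in DE, at 1.25. Over the merged peaks the GGAC ratio was 1.30 in HNF4A, 1.44 in ONECUT3, 2.62 in ONECUT1 and 2.93 in ONECUT2. In HNF4G it was 2.03, but on 1 site in 225 nt, with 1 site also on the opposite strand. Within single lists the GGAC ratio of the 5 genes ran from 1.45 in DE to 2.53 in hPSC. Over all genes with a peak, the single lists had 1.25 to 1.59. On the opposite strand of the peaks GGAC stood at 2.73 per kb over the 5 genes, and in ONECUT2 at 2.95 per kb against 3.22 on the transcript strand.

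Other transcription factors of the foregut and pancreas were counted beside the members. Of 17 such genes, hPSC had peaks on 5, DE on 8, PP on 16 and hILO on 15, while both WT PP and A5-KO PP had peaks on 17. Over all coding genes the shares were those given above, 60.2%, 57%, 52.2% and 57.7% for the 4 stages, and the list was chosen with earlier results known. PROX1, a homeodomain factor of liver and pancreas, had the most peaks in PP, 7, and none in DE or hILO. GATA4, a zinc finger factor of the endoderm, had 5 in PP and none in hPSC. PTF1A, which specifies exocrine pancreas, had none in any of the 4 stages and 1 in each of WT PP and A5-KO PP.

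Read counts and enrichment were given for ONECUT2 alone. To check whether read values belonged to the positions beside them, near-identical peaks of different lists, each covering more than 80% of the other, were paired. Over all such pairs the correlation of log2(input reads + 1) was 0.46 between DE and hPSC, 0.25 between PP and DE, 0.21 between hILO and PP and 0.30 between A5-KO PP and WT PP. Among peaks numbered 9000 to 12000 in their lists it was 0.83, 0.51, 0.83 and 0.87. These are correlations across peaks, which are not independent. Among the peaks numbered within 800 of those of each member, members left out, the correlation in 6 or 7 pairs of lists ran from -0.14 to 0.15 around HNF4A, -0.10 to 0.26 around ONECUT1, 0.08 to 0.35 around HNF4G and -0.09 to 0.19 around ONECUT3. At the best of the row offsets tried it was 0.22 to 0.45, 0.36 to 0.52, 0.32 to 0.44 and 0.30 to 0.58 in the same order of genes, with offsets that varied from pair to pair of lists. The read values printed beside these peaks were therefore not taken to belong to them. Around ONECUT2 it was 0.69 between hILO and PP. With WT PP or A5-KO PP it was 0.06 to 0.37 for the rows as deposited and 0.57 to 0.74 when WT PP and A5-KO PP peaks took the values of the row numbered 1 lower, the best offset in each pair of lists. Both readings are given for those 2 lists. Gene names and positions did match, since 226517 of the 228472 peaks (99.1%) lay on an exon of a gene they named.

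In PP the ONECUT2 peak from 1.2 to 2.2 kb after the stop codon (chr18:57477903-57478902) had the highest log2 enrichment, 2.51 ± 0.05 (counting error), with 929 input and 5260 IP reads. In hILO the peak at the same place had 2.60 ± 0.04, with 1240 input and 6320 IP reads. The peak near 7.5 kb had 2.23 in PP and 2.35 in hILO, and the one near 6.5 kb had 1.73 and 1.95. At the stop codon the values were 1.46 and 1.63, and in the coding peak at chr18:57436174-57436448 1.15 and 1.26. The order of these 5 peaks was thus the same at both stages. The coding peak toward the exon junction went the other way, with 1.26 in PP and 0.88 in hILO, a difference of -0.38 whose counting interval was -0.50 to -0.26, but the PP peak had 250 exonic nt and the hILO peak 50 nt, so that unlike regions were compared. The remaining PP peaks stood at 1.52 ± 0.22, a 50 nt peak with 57 input reads 0.6 kb after the stop codon, and at 0.97 ± 0.12 at the 3′ end of the transcript. In hILO the peaks at these places stood at 1.66 ± 0.16 and 1.09 ± 0.05, and the 4 hILO peaks without a counterpart in PP ran from 0.84 to 1.20. Over the 6 shared peaks the difference of hILO from PP had a median of 0.12, with 5 higher and 1 lower. For the 5 that were higher, the counting interval reached 0 or below. In the plain log2 ratio of IP to input reads, all 6 were lower in hILO, with differences of -0.95 to -0.04. That ratio is not corrected for depth. Reads inside all peaks were 30944774 IP and 6987612 input in PP, against 77537744 and 28463998 in hILO. The plain ratio therefore cannot decide the direction, and none is drawn. The lists were scaled separately, and intervals cover counting error only, with the pooled counts taken as sums over libraries.

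The input reads inside ONECUT2 peaks numbered 5520 in PP and 7312 in hILO. Scaled to the reads in all peaks of the list (RPM) this was 790 RPM in PP (exact Poisson interval at 95%, 769 to 811) and 257 RPM in hILO (251 to 263). Per kb of called length, with 2575 nt called in PP and 3150 nt in hILO, the values were 307 and 81.6. By IP the values were 704 and 265 RPM. All 3 values were lower in hILO, but they sum reads over regions called separately in each list, and 2656 of the 5520 PP reads lay in 1 coding peak, so they are not read as a change of the transcript level.

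For the knockout, the 11 shared ONECUT2 peaks had a median difference of A5-KO PP from WT PP of -0.39 in the rows as deposited, with 3 higher and 8 lower. The range was -2.83 to 0.26, and 2 peaks were lower by at least 1. Both of these pairs held a peak whose number stood outside the run of the gene's numbers, and 1 of them set a 50 nt peak against the 2625 nt WT PP peak that is also in another pair. With the row numbered 1 lower, 9 shared peaks had a value in both lists. Their median difference was -0.0037, with a range of -0.85 to 0.77, and 4 were higher, 5 lower and none beyond 1, the pairs beyond 1 in the other reading having no value here. In that reading the long stretch after the stop codon stood at 5.83 ± 0.01 in WT PP against 5.82 ± 0.01 for A5-KO PP. The peak near 7.5 kb had 6.59 and 6.00, that near 6.5 kb 4.33 and 4.34, and the coding peak across the junction 1.97 and 1.12. Near 7.5 kb the WT PP peak had 675 nt and the A5-KO PP peak 1125 nt, so that unlike regions were compared. As deposited, the coding peak across the junction had 5.83 and 5.82 and the stretch after the stop codon 2.51 and 2.38. In the second reading the counting interval left out 0 in 6 of the 9 pairs, 4 lower and 2 higher in A5-KO PP, and neither reading can be weighed against replicate spread.

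**Figure D4:**
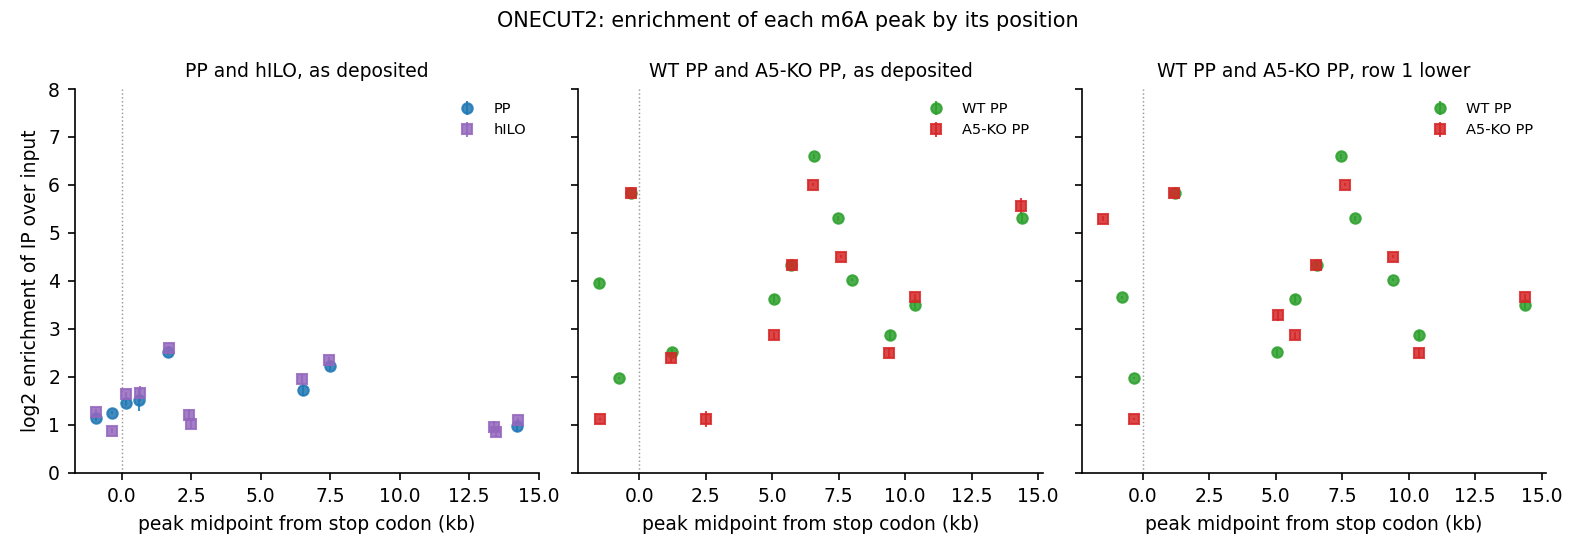
Log2 enrichment of IP over input (y axis) of each ONECUT2 peak against the distance of its midpoint from the stop codon (x axis, kb), with bars for the counting error, mostly smaller than the points; left PP and hILO, middle WT PP and A5-KO PP as deposited, right the same with the values of the row numbered 1 lower, where 1 peak of each list has no value. In PP and hILO the highest points lay near 1.7 and 7.5 kb, and in the right panel the highest lay near 1.2 and 7.5 kb.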

How the data were processed

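m6A-seq of 24 libraries in 12 groups of 2 was analysed from 6 lists of peaks, 1 per population. Reads had been trimmed (fastp), aligned to GRCh38 (HISAT2) and turned into peaks by the authors with exomePeak2, on the libraries of a population together; whether replicates were summed or averaged was not stated. The values deposited with a peak are the counts of reads in IP and in input, the authors' log2 enrichment, and a p-value, raw and adjusted. No peak had an adjusted p of 0.05 or above or an enrichment below 1.5, but many missed the p of 1e-05 that the methods give.

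Spans were reduced to the exons of their gene in GENCODE 44 and merged over lists into stretches where they overlapped or abutted (Python 3.11.15, pysam 0.24.0, bedtools 2.31.1). Regions were taken from the longest coding isoform. Counting errors were computed with 0.5 added to each count. Intervals cover counting error only, since PCR copies are not independent. The code was tested on simulated data. All 5 members were named, and of 17 related factors the 2 with most peaks in PP and those without a peak in PP. Sequences were printed for members off chromosome 8. The members, the lists of genes and the stage markers were chosen with earlier results of these data known. Levels, enrichment and the genes of most similar pattern were not given for HNF4A, HNF4G, ONECUT1 and ONECUT3, because read values did not follow peak positions in their part of the lists. Alternatives covered thresholds, overlap rules, scales and motifs. Numbers missing from the sequence of peak names were 50 in hPSC and 4550 in WT PP at the extremes.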

Additional observations from a re-analysis of the deposited data

How the results depend on the processing

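Under the alternatives run, 38 values stayed close to those reported (counts within 1.5 times), 11 moved and 0 changed sign. The differences of hILO from PP at ONECUT2 peaks, whose sign mostly turned in the ratio without correction for depth, are not counted here. With p below 1e-05 as the threshold, the family's peaks numbered 3 in hPSC in place of 5, 0 in DE in place of 3, 13 in PP in place of 22, and 18 in A5-KO PP in place of 32 against 20 in WT PP in place of 28, which turns the order of these 2 lists. With at least 10 input reads hPSC kept 3. These thresholds act on the read values of rows that could not be tied to the peaks, so they do not tell which positions are weak. The ratio of motif density inside and outside peaks was 1.06 for DRACH, 1.69 for GGAC and 1.26 for DRACH against the opposite strand. The median difference of A5-KO PP from WT PP at shared ONECUT2 peaks was -0.39 as deposited, -0.82 with centred count ratios and -0.0037 with the row numbered 1 lower, a choice made after the data had been seen. The log2 ratio of the scaled reads in ONECUT2 peaks of hILO over PP was -1.62 by input reads, -1.41 by IP reads and -1.91 per kb. The cause of these shifts was not tested.

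No paired analysis was possible because each list gives 1 value per peak for a whole population. For the same reason leaving out a replicate was not run, nor was the count model with an IP by genotype term. The levels and differences of HNF4A, HNF4G, ONECUT1 and ONECUT3 and the search for genes of similar pattern were not run, since read values and positions could not be matched there. A list without a peak does not show that the site was unmethylated.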

Other observations

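The agreement of input reads between near-identical peaks changed along the numbers that the lists give their peaks. Below 8000 the correlation of log2(input reads + 1) stood at 0.22 between DE and hPSC, 0.15 between PP and DE, 0.0060 between hILO and PP and 0.10 between A5-KO PP and WT PP. At 20000 and above it was 0.27, 0.14, 0.10 and 0.23. Numbers without a peak came to 50 for hPSC, 471 for DE, 1286 for PP and 1264 for hILO, and to 4550 for WT PP and 2735 for A5-KO PP. Within ONECUT2, peaks were numbered in a run along the gene, except that the peak at chr18:57435374-57436073 in WT PP was number 1242, next to 12426, and that at chr18:57479203-57479252 in A5-KO PP was number 1303, between 13019 and 13021.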
